A study of Nothobranchius furzeri with 20 samples.

Results

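Some genes varied strongly between liver libraries of the same rotenone dose and age, and did so at every dose and age. The 200 genes described here were chosen for that property from 26739 genes in the count tables. For each gene the standard deviation (SD) of log2(CPM + 0.5) over the 5 libraries was taken in each of the 4 groups, where CPM is counts per 1 M (mega) library counts, scaled by TMM factors, and the lowest of the 4 SDs ranked the genes. Genes needed a mean of 5 CPM or more over all 20 libraries, and the 100 genes of highest mean CPM were left out, which left 9646 eligible genes. The spread within groups chose these genes, so it is described without a test. The last gene chosen, Nfu_g_1_000408 at rank 200, had a lowest SD of 0.6923, and the first gene left out, Nfu_g_1_009764, had 0.6920, so the limit cuts through a continuous range.

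The libraries came from livers of male turquoise killifish (Nothobranchius furzeri) of the strain MZM-04/10p, a wild-derived line of a short-lived annual fish. All fish had received rotenone, an inhibitor of mitochondrial complex I, dosed as a percentage of the LC50, the median lethal concentration. The groups were 27-week fish at 1% of the LC50 and 9-week fish at 0.1%, 1% and 10%, with 5 libraries each, and no group used here was untreated. The labels do not say whether each library came from 1 fish, and the p-values below speak only of how much these 20 libraries vary, which may be technical.

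The liver makes plasma proteins, bile and lipoproteins and carries out much of the metabolism of sugars, fats and foreign compounds. In vertebrates many liver transcripts follow feeding, time of day, reproductive state, infection and exposure to foreign compounds, so they can differ between animals kept in the same way. Genes under a shared regulator are known to rise and fall together across individuals, which is why co-variation between genes was described here. None of the labels used here gives feeding, time of sampling, body weight or health of single fish. The gene identifiers are paired with no gene names in the sources used here, so no function is given to any gene, and the tissue could not be checked against liver markers. In a bulk library, fewer cells of a type and less RNA per cell cannot be told apart.

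Depth ranged over 23.5 to 33.9 M counts a library, and overlapped between groups. The library labelled replicate 5 of the 9-week 1% group stood apart, with 18665 genes detected, the fewest of the 20, and a TMM factor of 0.659, the lowest. Replicate 4 of the 9-week 0.1% group had the highest TMM factor, 1.35. Values without these 2 libraries stand beside the results that they moved.

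The spread of the 200 genes, which chose them, was as follows. Their median SD was 0.96 in the 27-week 1% group, 1.59 in the 9-week 0.1% group, 1.34 in the 9-week 1% group and 1.19 in the 9-week 10% group on the log2 scale. Over all 9646 eligible genes, members included, the median SDs were 0.23, 0.34, 0.52 and 0.23 in the same order. For scale, counting alone, taken as the Poisson error at each gene's mean count, would give the 200 genes median SDs of 0.066 in the 27-week 1% group, 0.060 at 9 weeks and 0.1%, 0.093 at 1% and 0.069 at 10%. Their highest library exceeded their lowest by a median of 5.39-fold in the 27-week 1% group, 17.1-fold at 9 weeks and 0.1%, 9.99-fold at 1% and 8.23-fold at 10%. A span of 10-fold or more was reached by 55, 129, 100 and 77 genes in these groups, and by 23 genes in all 4 groups. For these 200 genes the 27-week group was the tightest: it held the lowest of the 4 SDs for 95 of them. The 9-week 0.1% group held the highest for 105. Over all eligible genes the 27-week group was close to the 9-week 10% group, with median SDs of 0.229 and 0.232.

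**Figure D1:**
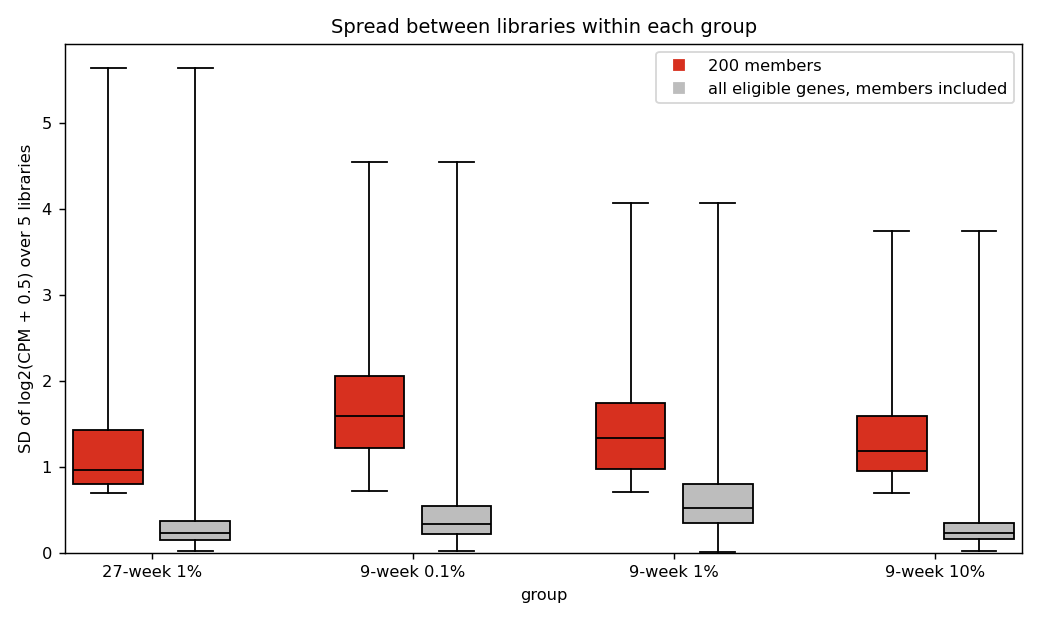
SD of log2(CPM + 0.5) over the 5 libraries of each group, for the 200 members (red) and all 9646 eligible genes (grey); boxes span the quartiles with the median as a line, and whiskers reach the lowest and highest gene. The median of the members lies between 0.96 and 1.59, against 0.23 to 0.52 for eligible genes; the members were chosen by this measure.

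High spread in some groups carried over to a group whose SD had no part in the ranking. Eligibility and scaling still used all 20 libraries, so a high library in the left-out group could help make a gene eligible. When eligible genes were ranked by the lowest SD of 3 groups only, the first 200 had a median SD of 0.79 in the left-out 27-week 1% group. In the left-out 9-week groups it was 1.51 at 0.1%, 1.19 at 1% and 0.95 at 10%. Of these genes 79.5%, 87.5%, 47.5% and 78.5% were among the most variable 10% of eligible genes in the left-out group. The 9-week 1% group gave the lowest share. All eligible genes were more spread there, with a median SD of 0.52, and it holds the library that stood apart. The part of either in the lower share was not tested. Between 122 and 185 of the genes chosen on 3 groups were also among the 200 chosen on all 4.

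The rule left out genes with means below 5 CPM, so the 200 genes could not be mainly rare transcripts by mean level. A mean can also rest on a few high libraries. Their mean level had a median of 15.1 CPM, against 17.4 CPM for eligible genes, and ran up to 1132 CPM. Means below 10 CPM were found for 60 of the 200 genes, and for 26.5% of eligible genes, while 29 of the 200 had means of 100 CPM or more. At least 1 count was present in every library for 191 genes, and the other 9 had 0 counts in at most 3 libraries. Gene length, recovered from the authors' tables labelled RPKM and not used by the rule, had a median of 2467 bases for the 200 genes, against 3141 bases for eligible genes, and the quartiles overlapped widely (1409 to 4061 bases against 1649 to 5296 bases). Of the 100 most abundant genes, left out by the rule, 2 had a lowest SD above the limit.

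The 2 genes with the largest lowest SD were near 0 in some libraries and at 93.2 CPM or more in others, in every group. Nfu_g_1_005279 stood at 19.7, 336, 232, 81.3 and 0.168 CPM in the 27-week 1% libraries (replicates 1 to 5 here and below). In the 9-week libraries it stood at 546, 0.147, 0.692, 21.1 and 345 CPM at 0.1%, at 0.547, 0.383, 1.503, 0.409 and 163 CPM at 1%, and at 0.148, 43.8, 441, 295 and 78.4 CPM at 10%. At least 1 library of every group was thus below 1 CPM and at least 1 above 100 CPM, and the 4 groups overlapped. The ratio of highest to lowest library, with 0.5 CPM added to each, was between 185 and 844 in the 4 groups. Nfu_g_1_008664 had its highest library in common with Nfu_g_1_005279 in the 3 groups of 9-week fish but not at 27 weeks: it was highest at 255 CPM in replicate 3 of the 27-week 1% group, at 804 CPM in replicate 1 at 0.1%, at 93.2 CPM in replicate 5 at 1% and at 200 CPM in replicate 3 at 10%. It was lowest at 0.409 CPM in replicate 5 of the 27-week 1% group, and in the 9-week groups at 0.246 CPM in replicate 2 at 0.1%, 0.383 CPM in replicate 2 at 1% and 0.111 CPM in replicate 1 at 10%. After each group's mean was removed, the 2 genes correlated with r = 0.991 over the 20 libraries. How reads of near-identical gene copies were counted is not given in the sources used here, so shared reads between such a pair were not tested.

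Which of the 200 genes varied together was described with the deviation of log2(CPM + 0.5) from the gene's group mean, so that differences between groups had no part in it. Of 19900 gene pairs, 2047 (10.29%) had r of 0.7 or more, against 4.33% of pairs of eligible genes, while 0.236% of the pairs had r of -0.7 or less, against 3.14% of eligible pairs. The genes therefore moved together in blocks far more often than in opposition. Average-linkage clustering, cut where the mean correlation between joined branches was 0.5, gave 3 sets of 8 or more genes, which held 66, 27 and 10 genes and are called sets 1, 2 and 3. The number of sets of 8 or more moved with single libraries: it was 2 without replicate 2 at 0.1%, replicate 5 at 9 weeks and 1% or replicate 1 at 27 weeks, 5 without replicate 5 at 10%, and 2 to 4 under the other settings tried, while 61 to 66, 24 to 27 and 7 to 10 of the genes of sets 1, 2 and 3 stayed in 1 set. Staying in 1 set does not mean that the 3 sets stayed apart from each other. Without replicate 5 at 9 weeks and 1%, 62, 27 and 10 of their genes stayed together, but in only 2 sets of 8 or more. Some of the sets had therefore joined. Another 4 sets (4 to 7) held 5 to 7 genes each, 23 sets held 2 to 4 genes, and 14 genes stood alone. All correlations are over the same 20 libraries and are descriptions.

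**Figure D2:**
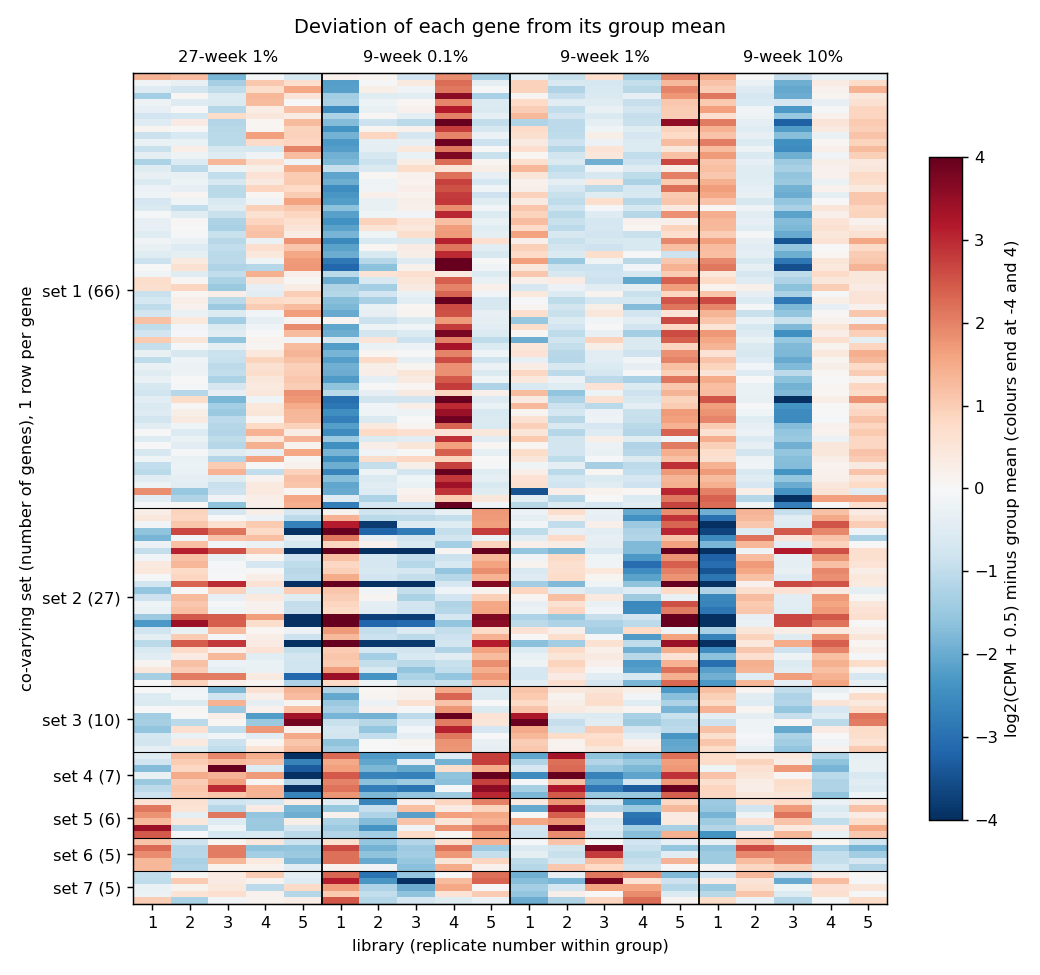
Deviation of log2(CPM + 0.5) from the group mean (colour) for the genes in sets of 5 or more (rows, grouped by set) in the 20 libraries (columns, grouped by dose and age). Set 1 is red through nearly all its 66 rows in replicate 4 at 9 weeks and 0.1%, and blue in replicate 3 at 10%.

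Set 1 held 66 genes with a mean pairwise r of 0.79 and a median level of 14.6 CPM. Its level in a library, the mean deviation over its genes, was -0.36, -0.17, -0.83, 0.40 and 0.96 (log2) in the 27-week 1% libraries. In the 9-week libraries it was -1.94, -0.25, 0.00, 2.58 and -0.39 at 0.1%, 0.37, -0.81, -0.28, -0.75 and 1.47 at 1%, and 1.34, -0.38, -1.97, 0.22 and 0.79 at 10%. Each group thus had high and low libraries. Replicate 4 at 0.1% was the highest of its group for 63 of the 66 genes, and replicate 3 at 10% the lowest of its group for all 66. Together the 66 genes took 12215 CPM in replicate 4 at 0.1%, against 1586 to 2052 CPM in the other libraries of that group. At 10% they took between 715 and 6754 CPM, and in replicate 5 at 1% 6290 CPM, against 829 to 1263 CPM in the other 9-week 1% libraries. In the 27-week 1% group they took 1399 to 5930 CPM, and the highest sum was in replicate 1 although replicate 5 was the highest for 43 of the 66 genes. The library highest for set 1 was the deepest of its group in the 27-week 1% and 9-week 0.1% groups, the third deepest at 10% and the shallowest at 9 weeks and 1%. The part of depth in these levels was not tested.

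The gene closest to the rest of set 1 was Nfu_g_1_008000, with a mean r of 0.88 to the other 65 genes. It stood at 6.04, 4.43, 3.24, 10.1 and 12.1 CPM in the 27-week 1% libraries, and in the 9-week libraries at 1.03, 5.65, 5.71, 55.7 and 4.25 CPM at 0.1%, 8.65, 1.802, 2.94, 1.75 and 16.9 CPM at 1%, and 33.7, 8.60, 2.34, 13.9 and 22.6 CPM at 10%. The 4 groups overlapped, and the ratio of highest to lowest library was 3.36 in the 27-week 1% group (0.5 CPM added), against 36.7, 7.76 and 12.04 in the 9-week groups at 0.1%, 1% and 10%. Nfu_g_1_023637, the next closest gene with a mean r of 0.88, had the same highest and the same lowest library as Nfu_g_1_008000 in all 4 groups, and its ratio of highest to lowest library was 3.98 in the 27-week 1% group, 43.9 at 9 weeks and 0.1%, 4.75 at 1% and 10.7 at 10%.

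The co-variation of set 1 was also read in each group taken alone. These libraries had formed the set, so the values are descriptions. Its mean pairwise r was 0.56 over the 5 libraries of the 27-week 1% group, 0.87 at 9 weeks and 0.1%, 0.71 at 1% and 0.92 at 10%. Not every set held together in every group: in set 7, with 5 genes, the mean r was -0.10 in the 27-week 1% group. Among the 9446 eligible genes outside the 200, 479 followed the level of set 1 with r of 0.7 or more and 69 with r of -0.7 or less. For the level of set 2 these numbers were 73 and 28. For the level of set 3 they were 268 and 231, nearly as many in opposition as together. For scale, 4.33% of pairs of eligible genes had r of 0.7 or more and 3.14% had r of -0.7 or less. A level is a mean over genes, so the 2 measures are not like for like, and the numbers are descriptions. Without replicate 4 at 0.1% the mean pairwise r of set 1 was 0.75, and 61 of its 66 genes still fell into 1 set.

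Set 2 held 27 genes, among them the pair described above, with a mean pairwise r of 0.75 and a median level of 42.6 CPM. Its level was -0.55, 1.30, 0.76, 0.28 and -1.79 (log2) in the 27-week 1% libraries. In the 9-week libraries it was 2.09, -1.51, -1.51, -0.87 and 1.8002 at 0.1%, -0.44, 0.10, -0.22, -1.66 and 2.22 at 1%, and -3.07, 0.85, 0.37, 1.64 and 0.21 at 10%. The 9-week 0.1% group split into replicates 1 and 5 above and the other 3 below, and in the 10% group replicate 1 was the lowest of the 5 for all 27 genes. The 27 genes together took 290 CPM in that library and between 2517 and 7150 CPM in the other libraries at 10%. Nfu_g_1_007900, the gene closest to the rest of the set (mean r of 0.84), stood at 88.2, 169, 92.1, 112 and 44.6 CPM in the 27-week 1% group. At 9 weeks it stood at 130, 27.1, 23.4, 20.5 and 123 CPM at 0.1%, 34.3, 83.1, 53.8, 10.96 and 173 CPM at 1%, and 8.01, 142, 44.1, 225 and 85.1 CPM at 10%. Nfu_g_1_014756 (mean r of 0.84) ran between 28.6 and 105 CPM in the 27-week 1% group, against 11.7 to 65.7, 4.57 to 74.3 and 4.43 to 108 CPM at 0.1%, 1% and 10%. By the recovered lengths, which are uncertain, the genes of set 2 were short, with a median of 1401 bases, against 3141 bases for eligible genes. Within groups the mean pairwise r was 0.62 in the 27-week 1% group and 0.85, 0.69 and 0.86 at 9 weeks and 0.1%, 1% and 10%.

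Sets 1 and 2 did not follow the same libraries. The mean r between a gene of set 1 and a gene of set 2 was -0.23, and -0.38 without replicate 5 of the 9-week 1% group, which was the highest of its group for both sets. Replicate 1 at 10% was the highest of its group for set 1 and the lowest for set 2, as was replicate 5 of the 27-week 1% group. Replicate 1 at 0.1% was the reverse, the lowest of its group for set 1 and the highest for set 2.

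Set 3 held 10 genes with a mean pairwise r of 0.71 and lower levels, with a median of 9.08 CPM. Its level was highest at 1.51 (log2) in replicate 5 of the 27-week 1% group, 2.18 in replicate 4 at 9 weeks and 0.1%, 1.62 in replicate 1 at 1% and 0.91 in replicate 5 at 10%. It was lowest at -0.73 in replicate 1 of the 27-week group, and at 9 weeks at -1.32 in replicate 1 at 0.1%, -1.66 in replicate 5 at 1% and -1.21 in replicate 3 at 10%. In 3 of the 4 groups its lowest or highest library was also that of set 1, and in the 9-week 1% group replicate 5 was the highest for set 1 and the lowest for set 3. The mean r between the 2 sets was 0.48, and 0.72 without that library, against 0.69 within set 3 then. That 0.72 was above the cut of 0.5, so set 3 did not stand apart from set 1 without that library. Nfu_g_1_000814 (mean r of 0.81) stood at 0.598 CPM in that library and at 2.79 to 6.74 CPM in the others of its group. Nfu_g_1_022231 (mean r of 0.80) stood there at 0.658 CPM, against 4.98 to 9.17 CPM in the others.

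Set 4, with 7 genes, was the tightest of the 7 sets of 5 or more, with a mean pairwise r of 0.89 and at least 0.74 between any 2 genes. Its 7 genes together took 54.5, 223, 564, 238 and 8.40 CPM in the 27-week 1% libraries. At 9 weeks they took 91.8, 1.67, 3.16, 10.49 and 234 CPM at 0.1%, 9.11, 212, 2.87, 4.94 and 190 CPM at 1%, and 278, 204, 214, 61.8 and 108 CPM at 10%. The 9-week 0.1% and 1% groups each had 2 high libraries and 3 low ones, whereas no library at 10% was below 61.8 CPM. Sets 2 and 4 leaned the same way, with a mean r of 0.49 between their genes. Both were highest in replicates 1 and 5 at 0.1% and in replicates 2 and 5 at 9 weeks and 1%. In the 27-week group both were lowest in replicate 5, but set 2 was highest in replicate 2 and set 4 in replicate 3. At 10% the 2 sets were reversed at both ends. There replicate 1 was the highest for set 4 and the lowest for set 2, and replicate 4 was the reverse. The single most extreme library event was in set 8, a set of 4 genes singled out after its values were seen. These 4 genes took 6654 CPM in replicate 3 of the 27-week 1% group, against 1.30 to 238 CPM in the other 27-week libraries. They took 241 CPM in replicate 4 at 9 weeks and 0.1%, and at most 23.4 CPM in the other 9-week libraries.

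**Figure D3:**
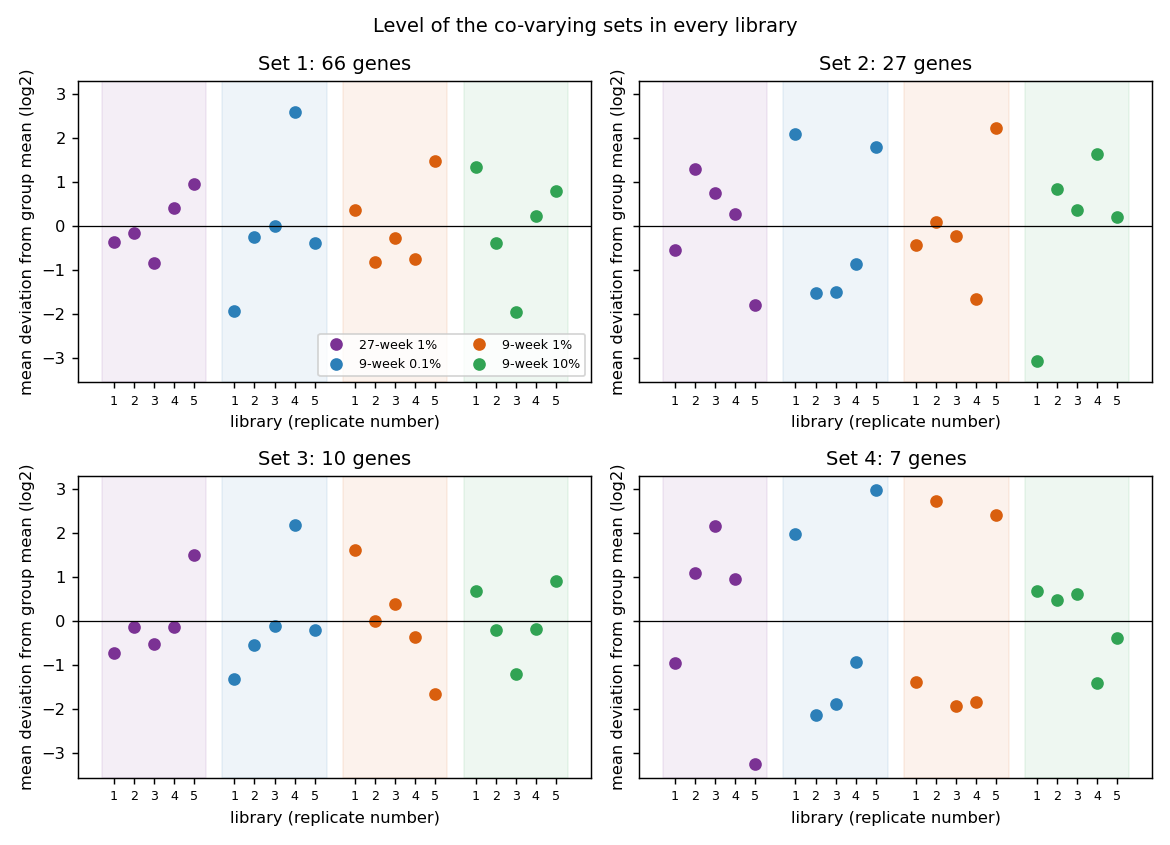
Level of sets 1 to 4 in each of the 20 libraries, as the mean over the set's genes of the deviation from the group mean (log2, vertical axis), by group and replicate number (horizontal axis). For set 1 the points run from -1.97 to 2.58, with a different order of libraries from set 2.

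Co-variation was also read in a group whose libraries were not used for clustering. The genes were those ranked first on 3 groups, as above, and they were clustered on the 15 libraries of these groups. Gene pairs in the same set of 8 or more had a mean r of 0.57 in the left-out 27-week 1% group. In the left-out 9-week groups it was 0.81 at 0.1%, 0.46 at 1% and 0.56 at 10%. Pairs of chosen genes that were not in the same set had mean r values of -0.07, -0.02, 0.03 and 0.00 in the same order. Pairs that shared a set of fewer than 8 genes are in neither mean. Sets of 8 or more numbered 2 with 117 genes when the 27-week 1% group was left out. For the left-out 9-week groups they numbered 5 with 106 genes at 0.1%, 2 with 128 at 1% and 4 with 79 at 10%. Each mean pools the pairs of all these sets, so larger sets weigh more, and single sets were not read. Over the pooled pairs, genes joined on 3 groups moved together on average in libraries that had not been used to join them. The 3 groups always still held the dose or the age of the group left out.

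The highest and lowest values were spread unevenly over the libraries. Replicate 5 was the highest of the 27-week 1% group for 71 of the 200 genes, and replicates 4, 5 and 1 were the highest at 9 weeks for 91, 96 and 87 genes at 0.1%, 1% and 10%. The lowest values fell to replicate 3 for 67 genes in the 27-week 1% group, and to replicates 1, 4 and 3 for 84, 70 and 100 genes at 0.1%, 1% and 10%. No library was near the group mean for all genes: between 46 and 152 of the 200 deviated from it by 2-fold or more in each library. The first 2 components of the deviations carried 30.9% and 18.5% of their variance.

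Whether group mattered was tested with edgeR's quasi-likelihood test on all 16516 genes that passed its filter on low counts (filterByExpr), with Benjamini-Hochberg adjustment over all of them and a threshold of 0.05. All 200 genes were tested. The large spread that chose the genes widens the error of their fold changes (median standard error of 0.81 on the log2 scale for 10% against 1%, against 0.26 for eligible genes), so fewer calls are built into the choice. A difference among the 4 groups passed for 19 of the 200 genes (9.50%), where 24.8% of all genes tested and 30.8% of eligible genes passed. Sets 1 to 3 held 3 of these 19 genes. Without replicate 4 at 0.1% and replicate 5 at 9 weeks and 1%, 48 of the 200 genes passed, beside 36.7% of all genes tested. DESeq2's likelihood-ratio test called 31 of the 195 it gave an adjusted p, beside 34.4% of all genes.

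Means of 5 libraries are less certain for genes of larger spread, so the choice also widens the span of the group means, and the next values are descriptions. The highest group mean exceeded the lowest by a median of 2.79-fold, against 1.58-fold for eligible genes. The spread within groups, which chose the genes, was larger still. For 159 of the 200 genes the smallest within-group span, from lowest to highest library, exceeded the span of the group means. This was so for 26.5% of eligible genes. Single libraries span more than means of 5 libraries even where groups do not differ, so these numbers do not show how much group matters. The share of variance between groups had a median of 17.2% for the 200 genes, against 32.1% for eligible genes. This share was not corrected for the number of groups and libraries, so part of it arises even where groups do not differ. The choice for large spread within groups also lowers it. The shares ran from 1.68% to 79.8%, and 10 of the 200 genes reached 50% or more, which 27.6% of eligible genes did.

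**Figure D4:**
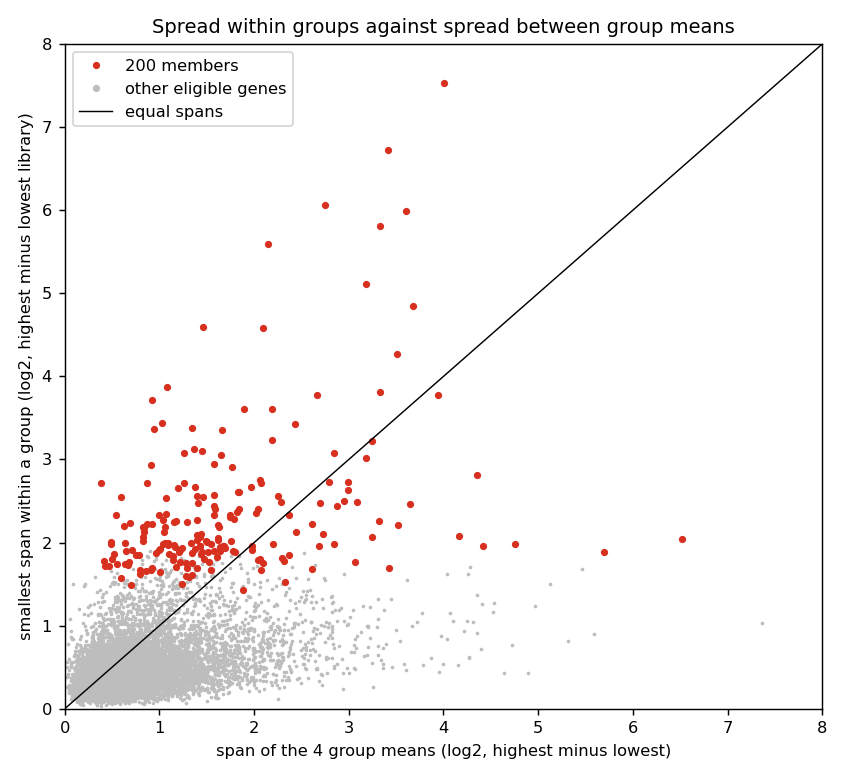
Smallest span within a group (log2, highest minus lowest of the 5 libraries, vertical axis) against the span of the 4 group means (log2, horizontal axis) for the 200 members (red) and the other eligible genes (grey). The 159 members above the line had a larger span within every group than between group means. The members were chosen for large spread within every group.

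The livers of 9-week fish at 10% differed from those at 1% in 10 of the 200 genes, 9 higher and 1 lower at 10% (edgeR adjusted p under 0.05). Of all genes tested 21.7% passed, 8.03% higher and 13.6% lower, and of eligible genes 27.1%. Positive fold changes were found for 147 of the 200 genes, with a median log2 change of 0.72, against -0.11 for eligible genes and -0.01 for all genes tested; without replicate 5 at 1% it was 1.10. In set 1, 63 of 66 genes had positive changes with a median of 1.35, and 5 passed. These genes were grouped for moving together, so they are not 66 separate observations. The set's mean log2 value, before group means were removed, overlapped between the groups. It ran from 2.13 to 5.44 in the libraries at 10% and from 2.05 to 4.33 in those at 1%. Nfu_g_1_009544 of set 1 stood at 176, 44.9, 4.65, 83.4 and 166 CPM at 10%, against 2.68, 0.997, 1.26, 1.30 and 10.0 CPM at 1%. It rose by 4.90 ± 1.12 (SE, log2; edgeR adjusted p = 0.00379), and 4 of 5 libraries at 10% were above all at 1%; replicate 3 at 10% fell within the range at 1%. Without replicate 5 at 1% its log2 change was 5.92. Nfu_g_1_021215 stood at 268, 325, 968, 973 and 993 CPM at 10%, against 1.12, 10.6, 117, 1.82 and 44.5 CPM at 1%, so the groups did not overlap, and it rose by 4.35 ± 1.17 (SE, log2; edgeR adjusted p = 0.0115). Without replicate 3 at 1% its log2 change was 5.61, and limma voom gave 6.07. The count of called genes moved with single libraries. It was 16 and 19 without replicates 1 and 4 at 0.1%, whose group is not one of those compared, 4, 6, 4 and 19 without replicates 2, 3, 4 and 5 at 1%, and 6 and 5 without replicates 4 and 5 at 10%, where 16.2% to 24.4% of all genes passed. It was 49 without both replicate 4 at 0.1% and replicate 5 at 1% (29.2% of all genes), 24 of 195 with DESeq2 (27.1%) and 5 with library totals in place of TMM (16.5%).

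Between 9-week fish at 1% and at 0.1%, 14 of the 200 genes passed, 1 higher and 13 lower at 1% (edgeR adjusted p under 0.05), where 19.4% of all genes tested passed, 11.6% higher and 7.82% lower. This comparison and the one before share the 9-week 1% libraries. The 0.1% libraries were deposited in a count table of their own, so table and dose cannot be told apart here or for 10% against 0.1%. Positive changes were found for 51 of the 200 genes, with a median log2 change of -0.82, against 0.03 for eligible genes. The median moved most with 1 library: without replicate 4 at 0.1% it was -0.17, with 84 positive changes. The median of set 1 was then 0.13, against -1.27 with that library. Without both this library and replicate 5 at 1%, the median was -0.47, with 57 positive changes, and that of set 1 was -0.33. With all libraries, limma voom gave -0.65 for the 200 genes and -0.79 for set 1. Nfu_g_1_008967 stood at 0.807, 10.7, 9.23, 7.32 and 0.777 CPM at 1%, against 118, 134, 56.4, 97.4 and 225 CPM at 0.1%. All 5 libraries at 1% were below all at 0.1%, and it fell by 4.47 ± 0.89 (SE, log2; edgeR adjusted p = 0.00156). Nfu_g_1_021215, at 1.12 to 117 CPM in the 1% libraries, stood at 1002, 41.2, 72.5, 1463 and 1165 CPM in those at 0.1%. The groups overlapped, with 3 libraries at 0.1% above every one at 1%, and the gene fell by 4.42 ± 1.17 (SE, log2; edgeR adjusted p = 0.0119). Its fold change was -5.69 (log2) with replicate 3 at 1% left out and -5.21 by limma voom, and it did not pass when only these 2 groups were fitted (edgeR adjusted p = 0.0768). The number of genes called was 24 without replicate 2 at 0.1%, and 6 and 30 without replicates 4 and 5 at 1%, where 18.5%, 15.4% and 20.1% of all genes passed. DESeq2 called 35 of 195 (24.9% of all genes), limma voom 8 (16.8%), and a fit of these 2 groups alone 5 of 196 (7.08%).

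None (0) of the 200 genes passed between 10% and 0.1% at 9 weeks by edgeR, where 0.0484% of all genes tested passed. For eligible genes it was 0.0622%, and of all genes tested 0.0182% were called higher and 0.0303% lower. At an unadjusted p under 0.05 there were 15 of the 200 genes, beside 6.53% of all genes tested. DESeq2 called 2 of the 195 genes with an adjusted p (0.845% of all genes) and limma voom 0 (0.0303%). The direction of the median change depended on the setting, at -0.04 in edgeR, 0.41 in limma voom and 0.46 without replicate 4 at 0.1%, so no direction is given.

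Between 27-week and 9-week fish at 1%, 3 of the 200 genes passed, 2 higher and 1 lower at 27 weeks (edgeR adjusted p under 0.05), where 2.07% of all genes tested passed, 0.932% higher and 1.14% lower, and 2.16% of eligible genes. Positive changes were found for 139 of the 200 genes, with a median log2 change of 0.61, against -0.09 for eligible genes. That median was 0.37 without replicate 5 of the 27-week group and 1.01 with replicate 5 of the 9-week 1% group left out. With library totals in place of TMM it was 0.89, and the median of all genes tested shifted to 0.11. Nfu_g_1_001278 stood at 24.8, 59.8, 50.8, 49.4 and 11.8 CPM at 27 weeks, against 7.63, 1.65, 0.839, 1.49 and 0.359 CPM in the younger fish at that dose. All 5 libraries at 27 weeks were above all at 9 weeks and 1%, and it rose by 4.03 ± 0.77 (SE, log2; edgeR adjusted p = 0.0190). It was also at most 5.41 CPM at 0.1% and 3.07 CPM at 10%. Leaving out replicate 1 of the 9-week 1% group gave 5.17 (log2), and its call ended without replicate 3 at 27 weeks (edgeR adjusted p = 0.0558) and with only these 2 groups fitted (0.0687). Nfu_g_1_019612 stood at 16.4, 46.5, 12.8, 9.32 and 26.5 CPM at 27 weeks, against 2.21, 1.38, 8.25, 2.86 and 1.67 CPM in the younger fish. It rose by 2.78 ± 0.61 (SE, log2; edgeR adjusted p = 0.0362), with 5 of 5 libraries above all at 9 weeks. That call was close to the threshold: it ended when any of replicates 1, 2, 4 and 5 of the 9-week 1% group, replicates 2, 3 and 5 of the 27-week group or replicate 4 of the 10% group was left out, with library totals in place of TMM and with only the 2 groups fitted (edgeR adjusted p 0.0503 to 0.0914), and leaving out replicate 3 of the 9-week 1% group gave 3.46 (log2). The number of genes called was 5 with replicate 3 of the 9-week 1% group left out (3.17% of all genes), 1 with replicate 3 of the 27-week group left out (0.15%), 1 in a fit of these 2 groups alone (0.161%), 8 without replicate 4 at 0.1% and replicate 5 at 9 weeks and 1% (2.6%), and 16 of 195 with DESeq2 (8.92%).

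Nfu_g_1_007386 had the smallest p among the 200 genes for a difference among the 4 groups (edgeR adjusted p = 3.66e-06), followed by Nfu_g_1_001278 (5.94e-05). It was also the 1 gene that fell at 27 weeks against 9 weeks and at 10% against 1%, and the 1 that rose at 1% against 0.1%. These comparisons share the 9-week 1% libraries. In that group it stood at 782, 245, 4.58, 612 and 848 CPM, and in each of the other 15 libraries it was at 10.0 CPM or below. Replicate 3 at 9 weeks and 1% lay within the range of the other groups, so this gene did not mark every library of its group. It fell by 7.71 ± 1.07 at 27 weeks against 9 weeks (SE, log2; edgeR adjusted p = 0.00557), fell by 6.68 ± 1.02 at 10% against 1% (0.000151), and rose by 7.28 ± 1.05 at 1% against 0.1% (0.000132); limma voom gave -6.93, -5.68 and 6.45.

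**Figure D5:**
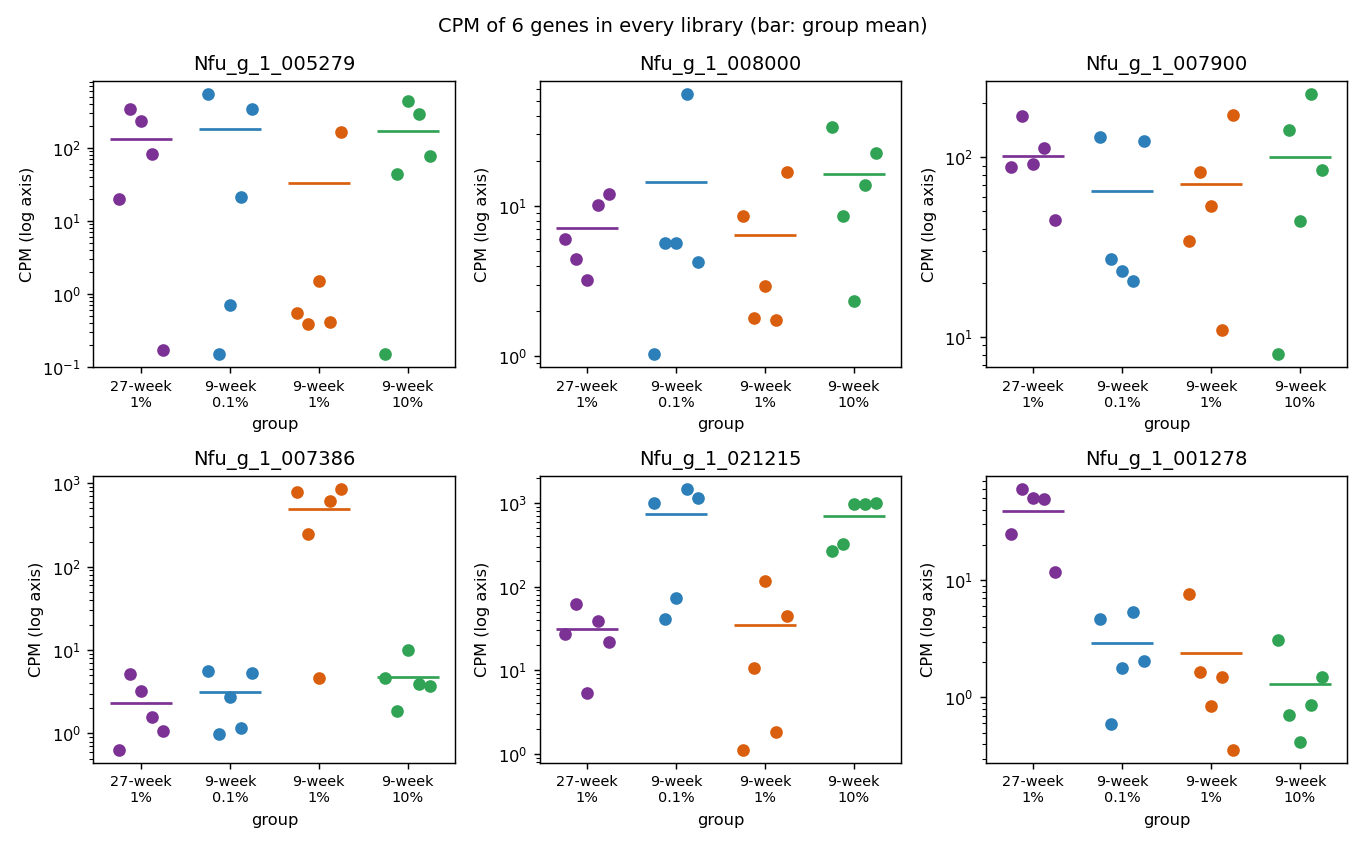
CPM on a log axis of 6 genes in each library (points, replicates 1 to 5 from left to right within a group) with the group mean (bar). Nfu_g_1_005279, Nfu_g_1_008000 and Nfu_g_1_007900 overlap between all 4 groups, while Nfu_g_1_007386 is above 200 CPM in 4 of 5 libraries at 9 weeks and 1%, and Nfu_g_1_001278 is above 11 CPM in all 27-week libraries.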

How the data were processed

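RNA was sequenced from 20 liver libraries (TruSeq RNA kit, per the labels' protocols). Unnormalized gene counts, as deposited, came in 2 tables that were joined (5 libraries, all 9-week 0.1%, and the other 15). The submitters' processing notes name featureCounts 1.4.6-p4, STAR 2.4.1d and CASAVA 1.8.2; for annotation, build, settings and strandedness, not given in the sources used here, no value is stated, so overlapping, antisense and near-identical genes are uncertain. Replicate numbers follow the sample list and only name libraries. Another 10 columns outside the sample list were not used. The authors' tables labelled RPKM, as deposited, were treated as a score normalized by divisors that follow rows (repeating every 35) and not libraries. They served only to recover gene lengths. Each of the 20 library totals had a recovered divisor within a relative difference of 2.53e-08, which is not an independent check of the lengths. Among rows that share divisors, as few as 5 columns had a divisor equal to 1 of the 20 totals. Of the eligible genes' lengths, 60.8% fell within 0.05 of a whole base, so the lengths are uncertain.

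The 200 genes, sets and comparisons were chosen with earlier results of these data known. The genes named were, by rule, the 2 with the largest lowest SD, the genes around the limit, the 2 with the highest mean r in each set of 8 or more, and per comparison the 2 largest rises and falls past the threshold (2 smallest p for the 4 groups). Identifiers matched no entry of the RefSeq gene table, so marker lists were not tested. Tests used edgeR 4.0.16 in R 4.3.3 (filterByExpr, TMM, 1 mean per group, 20 libraries in 1 fit, two-sided), and were tried on simulated counts. The 0.1% table and group coincide, so table and dose cannot be told apart. Alternatives were DESeq2 1.42.0, limma 3.58.1 voom, other scalings, filters and pseudocounts, and leaving out libraries. Over all genes but the 200, the 40 pairs of replicates had chi-square values of 46.6 or more per degree of freedom, so no pair agreed within sampling noise.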

Additional observations from a re-analysis of the deposited data

Results flagged for a closer look

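Among 68 groups of 5 values (the named genes and sets 1 to 3 in each group), 6 held a library whose gap to the nearest other library exceeded 0.71 of the group's range (Dixon's 95% critical value, on the log2 scale). Chance flags about 1 in 20 independent groups, but these genes were chosen for their spread within groups and many vary together, so the flags are given as a description. In the 9-week 1% group, replicate 5 was high for Nfu_g_1_005279 (163 CPM, the others 0.383 to 1.503) and Nfu_g_1_008664 (93.2 CPM, the others 0.383 to 2.20) and low for Nfu_g_1_022231 (0.658 CPM, the others 4.98 to 9.17). In the same group, replicate 3 was low for Nfu_g_1_007386 (4.58 CPM, the others 245 to 848). At 9 weeks and 10%, replicate 3 was low for Nfu_g_1_019612 (1.19 CPM, the others 5.28 to 7.87). In the 27-week 1% group, replicate 5 was high for the level of set 3 (1.51 on the log2 scale from the group mean, the others -0.73 to -0.12).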

How the results depend on the processing

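Of the 200 genes, between 154 and 192 were chosen again when any 1 library was left out, 143 to 198 with other normalizations, pseudocounts, a minimum of 1 CPM or no abundant genes left out, 119 by the second lowest SD, 89 by the lowest median absolute deviation, and 82 with a minimum of 20 CPM, which is every one of the 200 with that mean. Without replicate 4 at 9 weeks and 0.1% and replicate 5 at 9 weeks and 1%, an alternative chosen after seeing the data, 153 were. Pairs with r of 0.7 or more numbered 1891 to 2333 and genes in sets of 8 or more 99 to 121 with 1 library left out, and both stayed within 1.5 times their value under the other alternatives tried.

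The numbers of genes called depended on the libraries. With 1 library left out they were 13 to 28 for the 4 groups, 4 to 19 for 10% against 1%, 6 to 30 for 1% against 0.1%, 0 for 10% against 0.1% and 1 to 5 for 27 against 9 weeks. The shares of all genes then ran from 20.6% to 30.2%, 16.2% to 24.4%, 13.6% to 20.5%, 0.0179% to 0.22% and 0.15% to 3.17%. In the same order, DESeq2 called 31, 24, 35, 2 and 16 of 195, beside 34.4%, 27.1%, 24.9%, 0.845% and 8.92% of all genes. Leaving out both libraries named above gave 48, 49, 16, 1 and 8 of 200, beside 36.7%, 29.2%, 22.2%, 0.474% and 2.6% of all genes. Limma voom called 8 for 1% against 0.1% (16.8% of all genes), and library totals gave 5 for 10% against 1% (16.5%). Fits with only the 2 groups gave 5 of 196 for 1% against 0.1% (7.08%) and 1 for 27 against 9 weeks (0.161%). The cause was not tested. No fold change of a named gene changed sign. No paired analysis was possible because the labels give no replicate numbers that groups share.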
